A study of Mus musculus with 4 samples.

Results

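Histone mRNA signals were read for 44 genes, 35 replication-dependent histone genes, 8 histone variant genes and Slbp, among the 27674 gene names on the array. The members were taken by name from the probe annotation in the scanner files: every gene of the Hist1h, Hist2h, Hist3h and Hist4h series, the variants H1f0, H1fx, H2afx, H2afz, H2afy, H2afv, H3f3a and H3f3b, and Slbp. They carry 62 of the 41174 probes. RNA came from immature granulocytes, precursors of neutrophils, sorted out of the marrow of male C57BL/6 mice. One group was wild type (WT, 2 arrays) and the other was knockout for the microRNA miR-223 (miR-223 KO, here KO, 2 arrays), and the comparison asks what differs when this microRNA, abundant in myeloid cells, is missing. The age of the mice, the sort gate and the construction of the knockout allele are not given in the sources used here. Nothing in the labels says that the 2 replicates of a genotype are separate animals, and p-values therefore describe how far these 4 samples scatter, be the scatter technical or biological.

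Replication-dependent histone genes supply the bulk of nucleosomal histones while DNA is copied. They lie in clusters, have no introns, and their mRNAs mostly end in a conserved stem-loop in place of a poly(A) tail. Slbp, the stem-loop binding protein, holds that loop and directs processing, export, translation and decay of the mRNA, so that histone supply follows S phase. Variant histones such as H2A.Z and H3.3 are made throughout the cell cycle from polyadenylated mRNAs and are placed into chromatin by dedicated chaperones. Granulocyte precursors divide up to the myelocyte stage and then stop, and the replication-dependent mRNAs are known to disappear when cells leave the cycle. Several replication-dependent genes are also known to give longer, polyadenylated transcripts in differentiated cells.

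The labelling bears on what these probes can read. Per the labels' protocols cRNA was made with Agilent's low-input kit, and this kind of kit is generally known to start from an oligo-dT primer, so the signal of mRNAs without a poly(A) tail need not be proportional to their amount. The share of tailed histone transcripts in these cells was not measured. A search of the 60-base probes for the histone stem-loop, a stem of 6 base pairs around a loop of 4 bases, found the whole element in 1 of the 62 probes (and in 1 of all 41174, 0.00243%). In another pair of probes the sequence begins or stops inside the same element. The part of each probe around the element is shown because it says on which side of the usual end of the mRNA the probe lies, with the bases of the stem-loop in capitals (mm9, given by the files, 5′ to 3′ in the sense of the transcript).
Hist1h2ab: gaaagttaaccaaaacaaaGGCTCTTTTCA
Hist1h3a: aaccaaaGGCTCTTTTCAGAGCCaca
Hist1h2ae: CTTTTCAGAGCCattcacttaattcagtaa

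The Hist1h2ab probe (chr13:23843392-23843451, plus strand) stops 11 bases into the 16-base element, so all of it lies before the usual end of the mRNA. The Hist1h3a probe (chr13:23853756-23853815, minus strand) holds the element and 3 more bases. The Hist1h2ae probe (chr13:23662489-23662548, minus strand) starts with the last 12 bases of the element and runs 48 bases past it, into sequence that only a longer transcript would hold. These 3 probes read -0.80, 0.11 and -0.18 as log2 differences between KO and WT.

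Many histone genes are near copies, so a probe can bind the mRNA of several. Identical runs of 20 bases or more between probes of different member genes were found in 13 pairs. Of the 41 measured probes of replication-dependent genes, 14, in 12 genes, had such a run. Beyond the members, 1 probe shared one, that of H2afj, which overlaps the Hist1h2aa and Hist1h2af probes. The closest H2B pair matches at 58 of 60 bases and is shown with its 2 mismatched bases in capitals (Hist1h2bk, chr13:22127928-22127987, plus strand, and Hist1h2bm, chr13:21814139-21814198, plus strand, both mm9).
Hist1h2bk: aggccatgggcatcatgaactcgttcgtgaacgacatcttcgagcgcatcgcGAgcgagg
Hist1h2bm: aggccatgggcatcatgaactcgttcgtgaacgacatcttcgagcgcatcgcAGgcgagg

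The H4 pair overlaps by 50 bases without a mismatch, in capitals here (Hist1h4d, chr13:23673665-23673724, plus strand, and Hist1h4f, chr13:23643249-23643308, minus strand, both mm9).
Hist1h4d: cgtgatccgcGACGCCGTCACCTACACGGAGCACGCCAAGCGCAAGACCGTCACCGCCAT
Hist1h4f: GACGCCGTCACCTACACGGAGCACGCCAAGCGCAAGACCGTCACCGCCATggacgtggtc

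Signals of such probes were kept under the name in the files, but they cannot be assigned to 1 gene. Probes were compared with probes only, so a probe without a shared run may also bind mRNAs of other genes. Hist1h2aa and Hist1h2af shared 44 bases, Hist1h2af and Hist1h2ak 40, and Hist2h4 shared 29 with both Hist1h4d and Hist1h4f.

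Levels are given as log2 signal relative to the 75th percentile of the array, and a difference is KO minus WT with its standard error. The probe with the highest mean over the 4 arrays stands for a gene. Signals of different probes depend on the probes, so they are not read as amounts of one transcript against another. Of the 44 members, 42 were well above background on at least 2 arrays. The 2 others were Hist1h2al, well above background on 0 arrays, and Hist1h2be, on 1.

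Replication-dependent histone signals were lower in KO. Of the 33 measured genes 31 were below WT and 2 above, with a median difference of -0.55 and a range from -1.05 to 0.21, while the median of all 16988 measured genes was -0.02. Both KO arrays lay below both WT arrays in 27 of the 33 genes, against 30.5% of all genes, and above both in 1, against 28.0% of all genes. In 5 genes the genotypes overlapped, against 7042 of all 16988 genes. Summed over the 33 genes, the signal on the linear scale was 8750 and 9070 times the 75th percentile on the WT arrays and 6292 and 6305 on the KO arrays. In bulk RNA such as this, fewer cells that make a transcript and less of it per cell cannot be told apart.

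None of these genes passed limma at a Benjamini-Hochberg adjusted p of 0.05, and 0 of all 16988 genes did (0%), the smallest adjusted p being 0.0839 overall and 0.0861 among the histone genes. At an unadjusted p under 0.05 limma had 23 of the 33 genes lower in KO, against 12.0% of all genes, and 0 higher, against 11.8% of all genes. With an intensity trend in limma's variance prior, which lets probes of similar brightness share their spread, 21 of the 33 passed as lower at an adjusted p of 0.05, against 4.12% of all genes, and 0 as higher, against 5.45%. With 2 arrays against 2, the smallest two-sided p that an exact permutation test can give is 0.333. The direction rests on the background correction in 1 case, normexp fitted on all spots, control spots included. There the median of all genes moved from -0.02 to -0.16. Of the 33 genes 24 were lower, and the median of the 33 was -0.12, 0.04 above that of all genes. With normexp fitted without control spots 31 of 33 were lower and 22 passed.

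**Figure D1:**
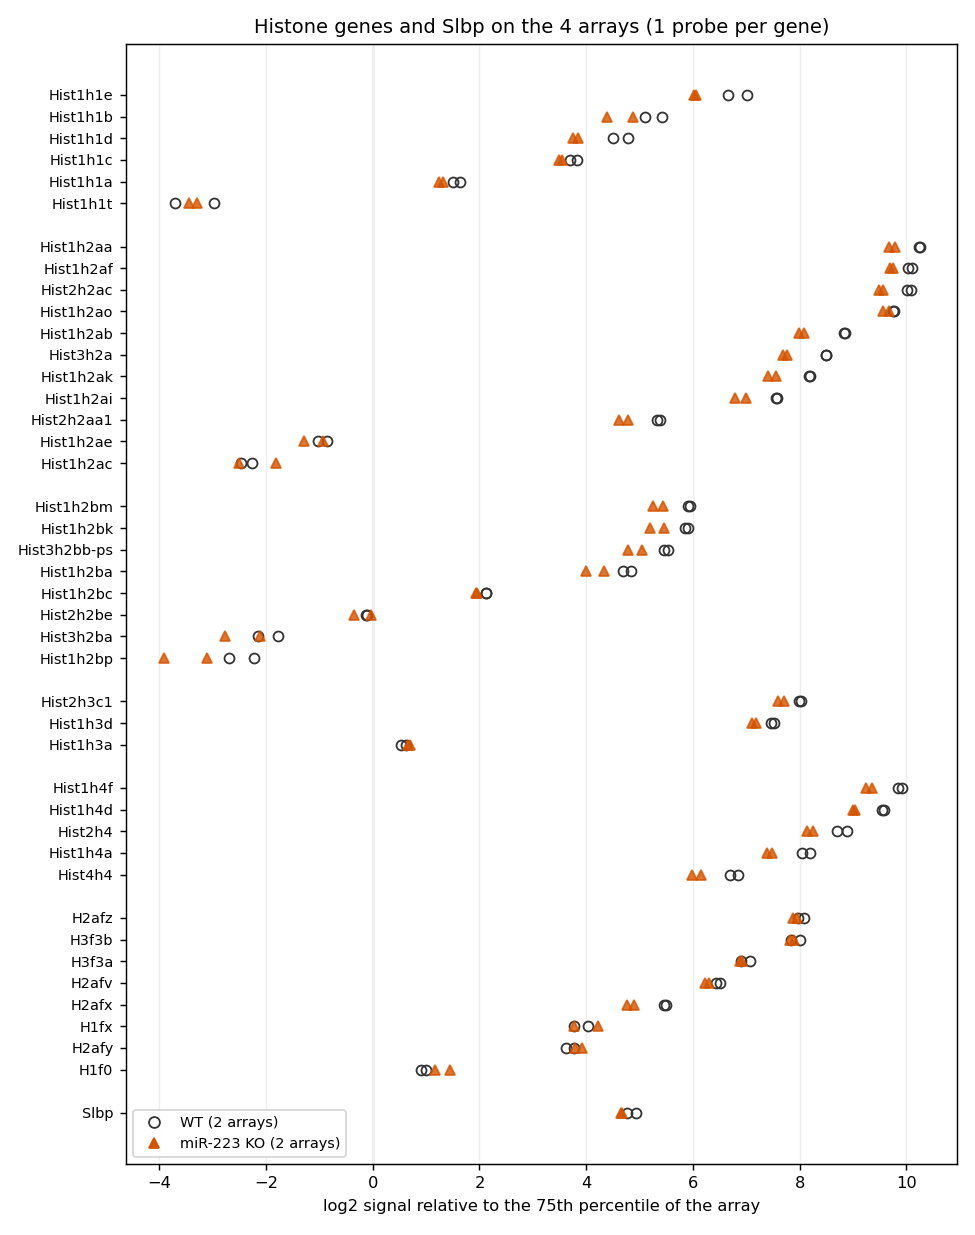
Level of each measured histone gene and Slbp on each array, in log2 signal relative to the 75th percentile of that array (x axis), grouped by family from H1 at the top to the variants and Slbp at the bottom. Open circles are the 2 WT arrays and triangles the 2 KO arrays; triangles lie left of both circles in 27 of the 33 replication-dependent genes and in 3 of the 8 variants.

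H4, which pairs with H3 at the core of the nucleosome, had the narrowest spread of differences of the families, but all its probes were bright. The other families also hold dim probes, and the H2B genes with a mean level of 4 or more spread less, from -0.60 to -0.55. All 5 measured H4 genes were lower in KO, with differences from -0.70 to -0.54, and all 5 were lower under each scaling tried, though with normexp on all spots their median was -0.12. Hist1h4a read 8.05 and 8.20 on the WT arrays and 7.38 and 7.48 on the KO arrays, a difference of -0.70 ± 0.10 (limma adjusted p = 0.0942; 0.0106 with the trend). Hist4h4, the single gene of its cluster, read 6.69 and 6.85 in WT and 5.98 and 6.16 in KO (-0.70 ± 0.12).
In both genes the WT arrays sat above the KO arrays by more than the spread within either genotype. Hist2h4 read 8.70 and 8.89 in WT and 8.13 and 8.24 in KO (-0.61 ± 0.11). Signals at the Hist1h4f probe shown above were 9.84 and 9.92 in WT and 9.25 and 9.35 in KO, a difference of -0.58 ± 0.09 (adjusted p = 0.0960 with limma; 0.0148 with the trend). Its overlapping neighbour Hist1h4d read 9.54 and 9.58 in WT and 8.998 and 9.046 in KO (-0.54 ± 0.08, limma adjusted p = 0.0960). These last 3 probes share sequence, so they are not independent readings. The Hist4h4 probe shares no run with any other probe, but whether it also binds other H4 mRNAs was not searched.

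Core histone H2A was measured with 11 genes, of which 10 were lower in KO, with a median of -0.53; after quantile normalization 8 were lower, at -0.20, and with normexp on all spots 7, at -0.22. An unadjusted p under 0.05 in limma was reached by 8, all lower, against 12.0% of all genes as lower. Hist1h2ab, whose probe ends in the stem-loop, read 8.82 and 8.85 in WT and 7.99 and 8.08 in KO. Its difference of -0.80 ± 0.09, or 0.574-fold, had the smallest p of the family (limma adjusted p = 0.0861; 0.00627 with the trend). Hist3h2a, on another chromosome (chr11:58768387-58768446, mm9), read 8.49 and 8.50 in WT and 7.77 and 7.69 in KO (-0.76 ± 0.08, limma adjusted p = 0.0861).
These 2 genes share no run with other probes, and in both the gap between genotypes is many times the gap between replicates. Hist1h2ak, with 8.19 and 8.17 in WT and 7.40 and 7.55 in KO, was at -0.70 ± 0.09. Hist1h2ai, with 7.56 and 7.57 in WT and 6.79 and 6.99 in KO, was at -0.68 ± 0.10. Hist2h2aa1, of the Hist2h cluster on chromosome 3, read 5.33 and 5.37 in WT and 4.62 and 4.78 in KO (-0.66 ± 0.10).
In each of the 3 the genotypes did not overlap (7042 of all 16988 genes overlapped). The limma adjusted p was 0.0892, 0.0960 and 0.0956, and 0.00869, 0.0116 and 0.00953 with the trend.

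Other H2A genes read as follows. Hist1h2aa, which codes for a testis H2A but whose probe shares 44 bases with that of Hist1h2af, read 10.23 and 10.25 in WT and 9.79 and 9.68 in KO (-0.51 ± 0.09). Hist2h2ac read 10.02 and 10.08 in WT and 9.56 and 9.49 in KO (-0.53 ± 0.08). Hist1h2af read 10.04 and 10.10 in WT and 9.74 and 9.70 in KO (-0.35 ± 0.08).
All 3 lay below WT on both KO arrays, as 30.5% of all genes did. With normexp on all spots, however, they read 0.03, 0.002 and 0.08, and after quantile normalization Hist1h2af read 0.06. Hist1h2ao, with 9.76 and 9.74 in WT and 9.67 and 9.57 in KO, was at -0.13 ± 0.09 (limma adjusted p = 0.411) and changed sign under both of those settings, to 0.31 and 0.15. Of the dim H2A probes, Hist1h2ae was at -0.18 ± 0.16 with overlapping genotypes. Hist1h2ac was the only H2A gene above WT, at 0.21 ± 0.27, with -2.27 and -2.47 in WT and -2.50 and -1.81 in KO. Its KO arrays lay on either side of WT, and without KO replicate 2 it was at -0.13.

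H2B, the partner of H2A, was lower in KO in all 8 measured genes, with a median of -0.56 (-0.13 with normexp on all spots, where 1 of the 8 was higher). The near-identical Hist1h2bk and Hist1h2bm probes gave -0.55 ± 0.12 and -0.59 ± 0.10. Hist1h2bm read 5.92 and 5.94 in WT and 5.25 and 5.44 in KO. Hist1h2ba, the testis form, has a probe without a shared run and read 4.69 and 4.83 in WT and 3.99 and 4.33 in KO (-0.60 ± 0.15).
With the trend, 4 of the 8 passed as lower, against 4.12% of all genes: these 3 and the pseudogene Hist3h2bb-ps (-0.57 ± 0.12). The other 4 were dimmer. Hist1h2bp had the widest difference of all members, -1.05 ± 0.35, on a dim probe that read -2.22 and -2.69 in WT and -3.92 and -3.10 in KO (limma adjusted p = 0.193). Hist1h2bc was at -0.18 ± 0.08, and Hist3h2ba and Hist2h2be, at -0.48 ± 0.28 and -0.07 ± 0.14, overlapped between genotypes.

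H3 was measured with 3 genes. Hist2h3c1 read 8.03 and 7.98 in WT and 7.59 and 7.70 in KO (-0.36 ± 0.09), and Hist1h3d read 7.47 and 7.53 in WT and 7.10 and 7.18 in KO (-0.36 ± 0.08). Both passed in limma with the trend (adjusted p = 0.0372 and 0.0332), but neither kept its sign with normexp on all spots, where they read 0.10 and 0.08. Hist1h3a, the probe across the stem-loop, was the only replication-dependent gene with both KO arrays above WT, at 0.67 and 0.71 against 0.53 and 0.62 (0.11 ± 0.09, limma adjusted p = 0.465).

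The linker histones H1 close the nucleosome and compact chromatin, and all 6 measured genes were lower in KO, with a median of -0.45 (5 of 6 and -0.24 with normexp on all spots). Hist1h1d read 4.49 and 4.78 in WT and 3.76 and 3.85 in KO (-0.83 ± 0.13, limma adjusted p = 0.0960; 0.0116 with the trend). Hist1h1e read 6.65 and 7.01 in WT and 6.06 and 6.02 in KO (-0.79 ± 0.15; 0.0192 with the trend, limma).
Hist1h1b spread more within genotypes, with 5.10 and 5.42 in WT and 4.40 and 4.88 in KO (-0.62 ± 0.22, limma adjusted p = 0.211). Hist1h1a was at -0.29 ± 0.10 and Hist1h1c, a form known to persist in resting cells, at -0.25 ± 0.09, with 3.83 and 3.70 in WT and 3.50 and 3.55 in KO. Hist1h1c turned to 0.20 with normexp on all spots. Hist1h1t, the testis form, overlapped between genotypes at -0.03 ± 0.28.

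The clusters gave like medians: -0.54 for the 24 Hist1h genes, -0.53 for 5 Hist2h genes, -0.57 for 3 Hist3h genes and -0.70 for Hist4h4. The genes were also split by brightness. Of the 23 genes with a mean level of 4 or more over the 4 arrays all were below WT on both KO arrays, with differences from -0.83 to -0.13 and a median of -0.60, and 21 passed with the trend. Of the 10 below that level 8 were lower, with a median of -0.18, 5 overlapped (7042 of all 16988 genes did) and 0 passed. Of the 1379 genes outside the histones with a mean level of 4 or more, 617 were lower and 762 higher, with a median of 0.03 and 78 passing as lower with the trend. Both KO arrays lay below both WT arrays in 399 of the 1379 and above both in 493. The difference between the groups was not tested. These splits were chosen after the values were seen.

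The same held by probe. Of the 41 measured probes in replication-dependent genes, the 26 with a GC content of 50% or more were all lower in KO, with a median of -0.60 and a median level of 7.55. The 15 with less GC were lower in 9 cases, with a median of -0.07 and a median level of -1.03. Across the 41 probes the difference ran against GC content with Pearson's r of -0.561 and Spearman's rho of -0.467, and against the mean level with -0.616 and -0.466. The probes share arrays and in part sequence, and brightness and GC content go together in them, so these are descriptions. The 14 probes with a shared run were all lower, with a median of -0.58, and of the 27 without one 21 were, with a median of -0.36, among them all 12 with a GC content of 50% or more, at a median of -0.64. Runs were sought only between probes of different gene names. Both Hist2h2ac probes therefore count among these 12, although they share a long identical run with each other.

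**Figure D2:**
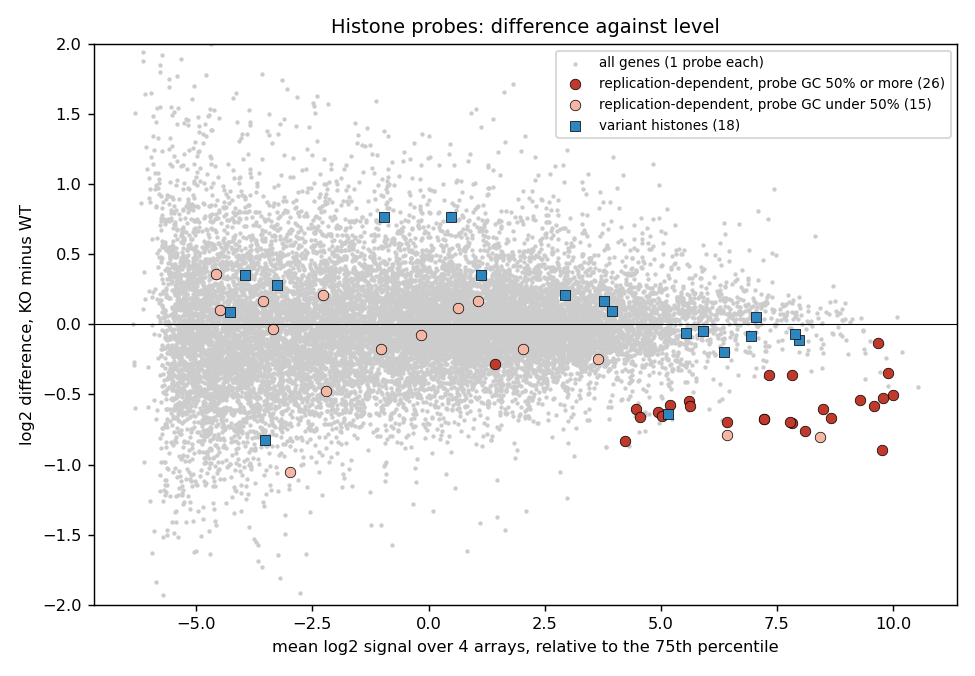
Difference between KO and WT (y axis, log2) against the mean level over the 4 arrays (x axis, log2 relative to the 75th percentile) for the 41 replication-dependent and 18 variant probes and, in grey, all 16988 genes. The y axis ends at 2 on either side of 0, which leaves out 26 of the grey genes; the 26 dark red probes all lie below 0, and 1 variant square, H2afx, lies among them.

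Several genes had a second probe at another place. In Hist1h4d the probe 158 bases upstream of the one shown read -0.68 ± 0.09, in Hist1h2af a probe 308 bases upstream read -0.67 ± 0.08, and in Hist1h2bk a probe 66 bases upstream read -0.66 ± 0.22. These repeat the direction of the first probe. Hist2h2ac had a second probe at -0.90 ± 0.25, with 9.64 and 8.99 on the KO arrays, but this one lies at chr3:96049751-96049810 (mm9), just after the Hist2h2aa1 probe and far from the other Hist2h2ac probe.

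Probes further away did not. In Hist1h1d a probe 1751 bases downstream read -3.89 and -3.38 in WT and -3.75 and -3.19 in KO (0.17 ± 0.28), against -0.83 at the first probe. In Hist3h2a a probe 567 bases downstream read 1.02 and 0.96 in WT and 1.16 and 1.16 in KO (0.17 ± 0.08), against -0.76. In Hist2h2aa1 a pair of probes taken from cDNA records, 4514 and 4904 bases before the first, read 0.10 ± 0.16 and 0.36 ± 0.24, against -0.66.
So within these 3 genes the bright probe was lower in KO and the others, all dimmer, were not. Which transcripts the dim probes read was not measured, and the difference between probes of a gene was not tested.

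**Figure D3:**
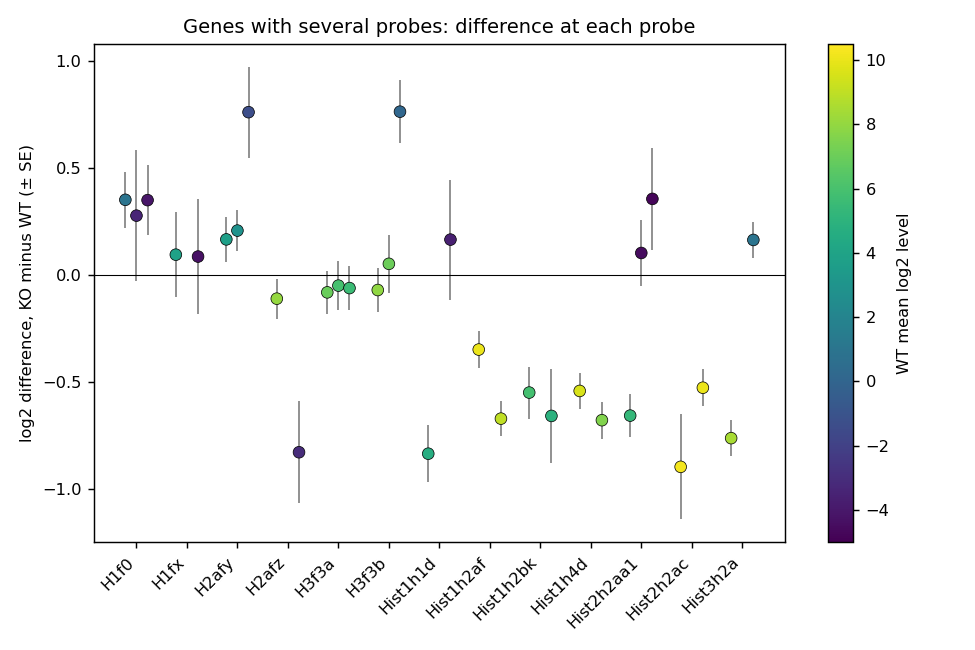
Difference between KO and WT at each probe (y axis, log2, with its standard error) for the 13 genes with more than 1 measured probe, coloured by the mean WT level of the probe, with the brightest WT probe of each gene at the left. In Hist1h1d, Hist2h2aa1 and Hist3h2a the left point lies at -0.66 or below and the darker points lie above 0, while the 3 H3f3a probes lie close to 0.

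Upstream of the genes, 3 short elements were searched on both strands in the 250 bases before each start in RefSeq promoters (GRCm38.p6), where 36 of the 44 members were found. The octamer ATTTGCAT, bound by Oct-1 (Pou2f1), stood before 6 of 11 H2A and 4 of 5 H2B genes and before 0 of 6 H1, 0 of 2 H3 and 0 of 4 H4 genes, against 1.81% of 27025 genes. The CCAAT box, spelled CCAAT, stood before all 11 H2A, all 5 H2B and all 6 H1 genes, 1 of 2 H3, 2 of 4 H4 and 4 of 7 variant genes, against 37.5% of genes. The TATA box, spelled TATAAA, stood before 5 of 11 H2A, 3 of 5 H2B, 4 of 6 H1, 1 of 2 H3, 2 of 4 H4 and 1 of 7 variant genes, against 14.3% of genes. Among variants, H3f3b alone had the octamer (1 of 7). A match is a description of these letters only. Whether the elements bear on the signals was not tested. The stretches before Hist1h2aa and Hist1h2ba overlap on opposite strands, so a match there can count for both genes. The last 150 bases before the start are shown for an H2A, an H1, an H4 and a variant gene, with matches in capitals. These were chosen because the families differ in the elements (Hist1h2ab chr13:23750938-23751087 plus strand, Hist1h1e chr13:23622559-23622708 minus strand, Hist1h4d chr13:23581418-23581567 plus strand, H2afz chr3:137864337-137864486 plus strand, GRCm38.p6).
Hist1h2ab: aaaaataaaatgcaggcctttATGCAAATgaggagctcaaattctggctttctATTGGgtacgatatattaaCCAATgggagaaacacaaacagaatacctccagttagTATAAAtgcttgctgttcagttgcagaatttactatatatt
Hist1h1e: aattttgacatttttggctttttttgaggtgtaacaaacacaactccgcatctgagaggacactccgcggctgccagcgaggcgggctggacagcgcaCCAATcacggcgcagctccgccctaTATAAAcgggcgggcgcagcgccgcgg
Hist1h4d: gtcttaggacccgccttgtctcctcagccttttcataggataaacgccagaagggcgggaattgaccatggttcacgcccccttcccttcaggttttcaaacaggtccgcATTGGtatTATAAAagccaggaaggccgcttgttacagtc
H2afz: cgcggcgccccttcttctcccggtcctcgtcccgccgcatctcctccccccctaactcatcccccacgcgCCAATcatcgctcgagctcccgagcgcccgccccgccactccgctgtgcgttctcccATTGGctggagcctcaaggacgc

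The histone variants were mixed. Of 8 measured genes 5 were lower and 3 higher in KO, with a median of -0.07, and the sign of that median changed under 5 of the alternatives. In 3 of them both KO arrays were below WT (30.5% of all genes) and in 2 above (28.0%), shares near those of all genes. H2afx was the exception. It codes for H2A.X, the variant that is phosphorylated around DNA breaks, and its mRNA is known to come both with the stem-loop and with a poly(A) tail. It read 5.49 and 5.45 in WT and 4.77 and 4.91 in KO, a difference of -0.64 ± 0.09 or 0.643-fold (limma adjusted p = 0.0944; 0.00949 with the trend), and was lower in all 16 alternatives, though with normexp on all spots by far less, at -0.09 (limma adjusted p = 0.902).

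H2afz and H2afv, the H2A.Z pair found at promoters, were at -0.11 ± 0.09 and -0.20 ± 0.09. H2afz read 7.96 and 8.08 in WT and 7.88 and 7.95 in KO, and H2afv read 6.51 and 6.43 in WT and 6.24 and 6.30 in KO. Neither passed (limma adjusted p = 0.511 and 0.259). The genotypes did not overlap in either gene, but they overlapped in only 7042 of all 16988 genes. H3f3a and H3f3b code for the same protein, H3.3, which marks active genes and replaces H3 outside S phase. H3f3a read 7.06 and 6.90 in WT and 6.88 and 6.92 in KO (-0.08 ± 0.10), and H3f3b 8.01 and 7.84 in WT and 7.82 and 7.89 in KO (-0.07 ± 0.10). In both, the genotypes overlapped.

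Further probes agreed for H3f3a (-0.05 ± 0.11 and -0.06 ± 0.10), but not for H3f3b. There a second probe read 0.05 ± 0.13 and another, 1217 bases downstream of the first, read 0.18 and 0.04 in WT and 0.72 and 1.03 in KO, 0.76 ± 0.15 (limma adjusted p = 0.106 among all probes). H2afy, macroH2A, was at 0.17 ± 0.11, with 3.62 and 3.77 in WT and 3.93 and 3.79 in KO. Its other probes read 0.21 ± 0.10 and 0.76 ± 0.21.
H1f0, the linker histone of differentiated cells, had both KO arrays above WT, with 0.898 and 0.999 in WT and 1.16 and 1.44 in KO (0.35 ± 0.13, limma adjusted p = 0.222; 0.102 with the trend). Its other 2 probes were far dimmer and read 0.28 ± 0.30 and 0.35 ± 0.16. H1fx read 3.78 and 4.03 in WT and 4.23 and 3.78 in KO (0.10 ± 0.20), with overlapping genotypes. A second H2afz probe, on another chromosome, read -0.83 ± 0.24 at a level of -3.11 in WT.

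Slbp read 4.94 and 4.77 in WT and 4.65 and 4.67 in KO. Both KO arrays were below WT, but the difference of -0.19 ± 0.10 did not pass (limma adjusted p = 0.320; 0.169 with the trend), and with normexp on all spots it read 0.27. Of 20 genes that act on histone genes and their mRNA, 17 were lower and 3 higher, with a median of -0.23 (9 lower and 11 higher with normexp on all spots). In limma 0 passed, and 5 lower and 1 higher had an unadjusted p under 0.05, against 12.0% and 11.8% of all genes. Eri1, the exonuclease that trims the stem-loop end, was at -0.50 ± 0.08, with 3.67 and 3.68 in WT and 3.18 and 3.17 in KO. Cpsf2, a subunit of the complex that cuts the pre-mRNA, was at -0.35 ± 0.08.
These 2 of the 20 passed as lower with the trend (limma adjusted p = 0.0116 and 0.0308), against 4.12% of all genes. Cdk2, the kinase that with cyclin E activates histone transcription, was at -0.28 ± 0.08, and Lsm10, of the U7 particle, was higher by 0.27 ± 0.08. Npat, the target of that kinase at histone loci, was at -0.52 ± 0.29. Pou2f1, which encodes Oct-1, was at -0.21 ± 0.14.

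Histone chaperones carry new histones to DNA. Of 28 listed genes 24 were lower and 4 higher, with a median of -0.22, and 6 passed with the trend, all lower (4.12% of all genes), while limma without it called 0. Asf1b, which hands over H3 and H4, read 5.30 and 5.28 in WT and 4.73 and 4.80 in KO (-0.53 ± 0.08, limma adjusted p = 0.0960). Hjurp, the chaperone of the centromeric H3 Cenpa, was at -0.64 ± 0.11. Chaf1a, the large subunit of the replication-coupled assembly factor, was at -0.45 ± 0.08, and Dnajc9 at -0.36 ± 0.09. Hira and Daxx, which place H3.3, were at -0.35 ± 0.12 and -0.05 ± 0.08. With normexp on all spots 20 of the 28 were higher.

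Other genes of the cell cycle were lower alongside. Of 26 S phase genes 25 were lower, with a median of -0.22, and 9 lower and 1 higher had an unadjusted p under 0.05 in limma, against 12.0% and 11.8% of all genes. The cyclins E, which open S phase, were the lowest of those named: Ccne1 at -0.68 ± 0.08 and Ccne2 at -0.70 ± 0.11. The 2 subunits of ribonucleotide reductase differed in sign, Rrm1 at -0.38 ± 0.08 and Rrm2 at 0.38 ± 0.09, but both were above 0 with normexp on all spots, at 0.09 and 0.82.
All 20 mitotic genes were lower, with a median of -0.57. All 20 had an unadjusted p under 0.05 in limma (12.0% of all genes as lower) and 19 passed with the trend (4.12%). Foxm1, a transcription factor for mitotic genes, was at -0.95 ± 0.08, the kinase Plk1 at -0.77 ± 0.10, the spindle motor Kif11 at -0.86 ± 0.11 and the ubiquitin-conjugating enzyme Ube2c at -0.68 ± 0.09.
The replication-dependent histone median of -0.55 therefore stood nearer to that of the mitotic list than to that of the S phase list. The differences between lists were not tested. With normexp on all spots the S phase median was 0.20 and the mitotic one -0.15.

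**Figure D4:**
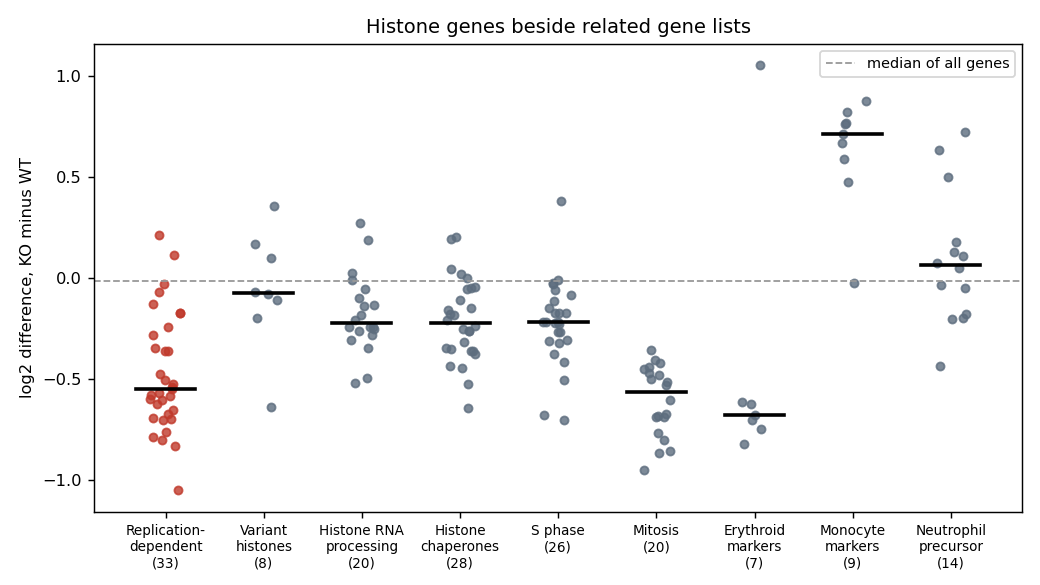
Difference between KO and WT (y axis, log2) of each measured gene in the replication-dependent and variant histones and in 7 lists, with black bars at the medians and the number of genes in brackets. The medians are -0.55 for replication-dependent histones, -0.57 for mitosis, -0.22 for S phase, -0.68 for erythroid and 0.71 for monocyte markers; the dashed line is the median of all genes, -0.02.

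Histone genes outside the members were few. Of 8 listed, 6 were measured, 4 lower and 2 higher, with a median of -0.09 and 0 passing in limma. At an unadjusted p under 0.05 limma had 0 lower and 1 higher, against 12.0% and 11.8% of all genes. H2afj, an H2A variant whose probe overlaps those of Hist1h2aa and Hist1h2af, was at -0.34 ± 0.13. H2afy3 was at 0.69 ± 0.18, H2afb1 at -0.26 ± 0.13 and H1foo, the oocyte linker histone, at -0.17 ± 0.18. Cenpa was at 0.15 ± 0.21, with 1.88 and 2.40 in WT and 2.28 and 2.30 in KO.

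Marker genes of the sorted and of other cells were read beside these results. Neutrophil precursor markers summed to 6696 and 7254 times the 75th percentile in WT and 6988 and 6214 in KO (14 of 16 measured, 6 lower and 8 higher); Ly6g and Cebpe were not measured under those names. Within that list the primary granule proteases Prtn3, Ctsg and Elane were higher in KO, by 0.72 ± 0.10, 0.63 ± 0.09 and 0.50 ± 0.09. They passed as higher in limma with the trend (adjusted p = 0.00862, 0.0106 and 0.0177), against 5.45% of all genes. Ltf, a secondary granule protein, was at -0.44 ± 0.25, with 10.09 and 10.13 in WT and 9.991 and 9.345 in KO. Of the same granules, Lcn2 was at 0.13 ± 0.17, Camp at -0.05 ± 0.13 and Ngp at -0.04 ± 0.09. Mpo was at 0.05 ± 0.13. Levels of several other marker lists differed between the genotypes alongside the histones. Erythroid markers, from a lineage that divides in the same tissue, summed to 149 and 145 in WT and 108 and 79.6 in KO, with 7 of 12 measured, 6 of them lower. Of the defining erythroid genes Gata1, Klf1 and Rhag were not well above background on 2 arrays. Monocyte markers summed to 54.0 and 53.7 in WT and 93.4 and 81.5 in KO (9 of 9 measured, 8 higher), and eosinophil markers to 13.3 and 11.4 against 20.2 and 18.6 (5 of 6 higher). Progenitor markers summed to 8.68 and 8.45 against 15.3 and 12.1 (5 of 6 higher), and macrophage markers to 11.9 and 13.2 against 19.2 and 16.8 (4 of 6 higher). B cell markers summed to 6.27 and 6.79 against 9.22 and 7.24, although 6 of the 7 measured were lower (median -0.26) and only Cd79b was higher, at 0.46 ± 0.13. T cell markers summed to 1.18 and 1.15 against 0.707 and 0.505 (6 of 7 lower), and megakaryocyte markers to 0.848 and 0.972 against 1.64 and 2.22 (3 of 3 higher). Of these, 6 T cell and 2 megakaryocyte genes overlapped between genotypes (7042 of all 16988 genes did). Without KO replicate 2 the T cell and megakaryocyte medians were 0.28 and -0.09. With normexp on all spots the macrophage, progenitor and megakaryocyte medians turned to -0.297, -0.205 and -0.362, and all 14 neutrophil precursor markers were higher. The medians of the other lists named here kept their sign. The part of all these markers and of the cell cycle genes in the histone result was not tested.

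The member probes were also searched for matches to miR-223. The mature miRNA from RefSeq (GRCm38.p6, chrX:96242884-96242905, plus strand) is shown with its seed, bases 2 to 8, in capitals.
mmu-miR-223-3p: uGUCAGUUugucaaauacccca

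Its 7-base match AACTGAC was in 0 of the 62 member probes and in 0.372% of all probes. The match of the other arm, AATACAC, was in 1, the downstream H3f3b probe that read 0.76 higher in KO, and in 0.35% of all probes. Probes cover 60 bases of a transcript, so this says nothing of the rest. No probe of the array is annotated to Mir223, and the genotype labels could not be checked on it.

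On the array level, 59.6 to 62.9% of spots were well above background, no spot (0) reached saturation, and the signal used for scaling, the array's 75th percentile, was 311 to 314 in WT and 361 and 422 in KO. Replicates correlated at 0.994 in both genotypes over all genes, and arrays of different genotypes at 0.988 to 0.991.

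**Figure D5:**
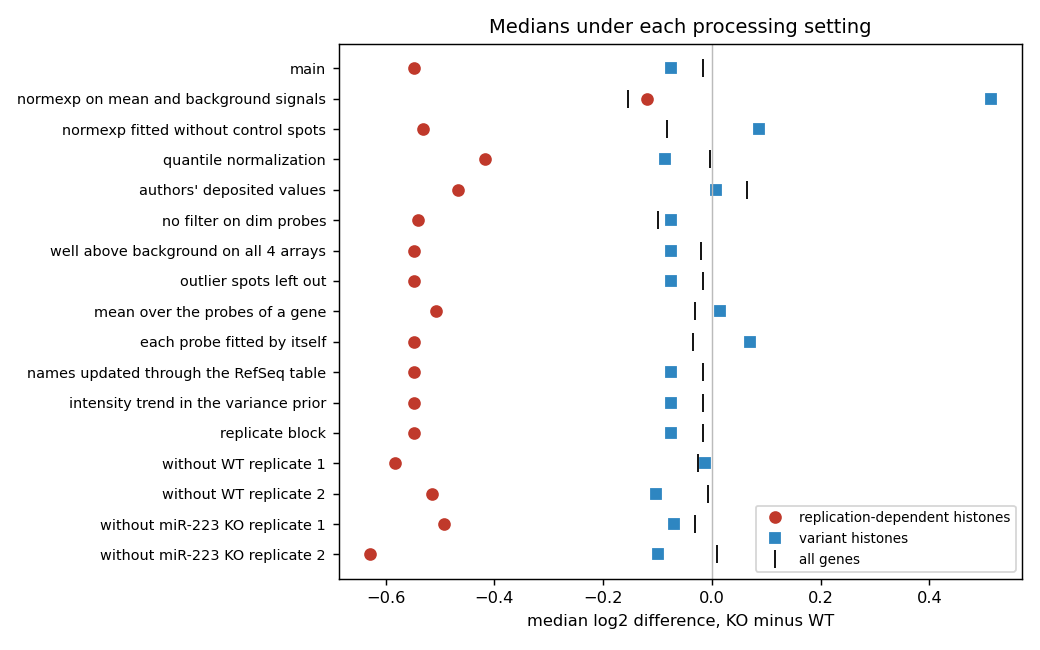
Median difference between KO and WT (x axis, log2) of the 33 replication-dependent genes, the 8 variants and all genes, in the fit reported here and in 16 alternatives (y axis); where each probe was fitted by itself the medians are over 41 and 18 probes. The circles stay left of 0 throughout, from -0.63 to -0.12, while the squares cross 0 and the all-gene median ranges from -0.16 to 0.06.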

How the data were processed

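RNA of 2 WT and 2 KO samples was hybridised to 1-colour Agilent arrays, all on 1 slide and scanned once. Intensities were read by the authors with Agilent Feature Extraction 10.5.1.1, per the file headers; the processed signal is background-subtracted. The deposited log2 value table tracks log2 of the processed signal up to 1 constant an array (column medians 4.68) and served as an alternative; its centring is not stated.

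The main values are log2 processed signal minus the 75th percentile of the array's non-control spots. Spots of a probe were averaged, a probe was kept if well above background on 2 or more of the 4 arrays, and the probe with the highest mean stood for a gene. All 16988 genes were fitted with limma 3.58.1 (R 4.3.3; lmFit and eBayes, Benjamini-Hochberg, threshold 0.05), without a block: replicate numbers did not pair the samples. The number of arrays limits the precision. The fit was tested on simulated data. Alternatives were 16, among them normexp with an offset of 50.

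The members, lists and probe classes were chosen with earlier results of these data known. The genes named by rule were Slbp, every measured variant, the 8 replication-dependent genes with the smallest p in each direction and the 6 brightest in WT, and up to 4 of each pathway list with the smallest p; other genes named were chosen after their values were seen. Gene names are those of the array files. Promoters and the miRNA come from RefSeq (GRCm38.p6), and probe positions are mm9, so the 2 builds were kept apart.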

Additional observations from a re-analysis of the deposited data

How the results depend on the processing

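Counts of all genes passing limma at an adjusted p of 0.05 were 0 in the main setting, 1885 with normexp fitted without control spots, 4 after quantile normalization, 61 with the authors' deposited values, 125 with probes well above background on all 4 arrays and 1625 with the intensity trend. Of the histone genes, 0, 23 and 22 passed in the main setting, with normexp without control spots and with the trend, and 0 in the other alternatives. The replication-dependent median of -0.55 was -0.12 with normexp on all spots, -0.42 after quantile normalization and -0.47 with the authors' values, and -0.63 to -0.49 when 1 array was left out. The variant median of -0.07 was 0.51 with normexp on all spots, 0.0867 with normexp without control spots, 0.00706 with the authors' values, 0.0147 with the mean over probes and 0.0706 with each probe fitted by itself, and -0.102 to -0.0129 when 1 array was left out. The cause of these shifts was not tested. Single genes reversed as follows. With normexp on all spots Slbp was at 0.27, H2afv 0.28, H2afz 0.46, H3f3a 0.51, H3f3b 0.53, Hist1h2ac -0.54, Hist1h2aa 0.0276, Hist1h2af 0.0764, Hist2h2ac 0.00226, Hist1h2ao 0.31, Rrm1 0.0887, Chaf1a 0.0403, Dnajc9 0.11, Cpsf2 0.000829, H2afy3 -0.0408 and H2afj 0.17. With normexp without control spots H2afz was at 0.0189, H3f3a 0.0791 and H3f3b 0.0944. After quantile normalization Hist1h2af was at 0.0588 and Hist1h2ao 0.15. With the authors' values H3f3a was at 0.00163 and H3f3b 0.0125. With the mean over probes H3f3b was at 0.25. When 1 array was left out H1fx ranged from -0.129 to 0.321, being below 0 without WT replicate 1 (-0.0296) or KO replicate 1, H3f3a from -0.163 to 0.0037 and H3f3b from -0.152 to 0.0143, both above 0 without WT replicate 1, Hist1h2ac from -0.131 to 0.555, below 0 without KO replicate 2, and H1foo from -0.381 to 0.0388, above 0 without WT replicate 2. Of the 23 histone genes named by rule 12 never reversed in the 16 alternatives, and of the 20 pathway genes 13.

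With the replicate number as a block 0 genes passed in limma, the smallest adjusted p being 0.162. In that fit 23 replication-dependent genes were lower at an unadjusted p under 0.05, as without the block. The share of all genes was 12.0% without the block and was not counted with it. Replicate numbers were not used as pairs: deviations of the same-numbered arrays correlated at 0.0382. Without WT replicate 1, WT replicate 2, KO replicate 1 and KO replicate 2 the replication-dependent median minus that of all genes was -0.557, -0.507, -0.462 and -0.638. A lone array is assumed in such fits to vary like the other genotype, so their p-values are not given. Dim probes, with signals near background, limit the 10 replication-dependent genes below a level of 4.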
